A study of Mus musculus with 54 samples.

Results

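The 34 genes described here encode the proteins that bring glucose into a cell, split it to pyruvate, exchange pyruvate with lactate, control its entry into mitochondria and connect the pathway to glycogen, the pentose phosphate route and glycerol phosphate. They were chosen by symbol from the coding count and TPM tables, and all 34 were found among the 25149 genes listed. Each had at least 1 count in every one of the 54 libraries. In the tests, 33 of them passed the filter on low counts for the sides without hCG, where Pfkfb4 did not, and all 34 passed it in the other comparisons.

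Glycolysis turns glucose into pyruvate in a chain of cytosolic enzymes, most of which exist in several forms that different cells use. The hexokinase, phosphofructokinase and pyruvate kinase steps are the regulated ones, lactate dehydrogenase restores the NAD+ that the chain consumes, and the pyruvate dehydrogenase complex commits pyruvate to mitochondrial oxidation. In the ovarian follicle, granulosa and cumulus cells are the glycolytic cells, and they hand pyruvate and lactate to the oocyte, which uses little glucose itself.

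The libraries came from ovarian follicles of CD-1 mice aged 14 to 16 days, grown singly in alginate until day 8 of culture and then held for 12 h in a maturation medium that contained serum, EGF and recombinant FSH. This medium held human chorionic gonadotropin (hCG), which acts through the luteinizing hormone receptor and triggers ovulation, or lacked only that component. After hCG the follicles had ruptured, and each was cut into its ruptured and unruptured side (n = 13 and n = 12 libraries). Follicles without hCG were cut at the place where rupture was foreseen from the swelling of the antral cavity and image analysis, which gave a putative ruptured and a putative unruptured side (n = 14 and n = 15). Each library was made from 1 follicle side with Smart-Seq2, and the sources used here do not say which sides came from the same follicle, so the p-values measure the spread between these pieces. These follicles grew and ruptured outside the ovary, without its blood vessels or neighbouring follicles.

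Total counts per library ranged from 1497071 to 2834734. Cumulus-oocyte complex is given as the tissue in the labels, but the methods of the study say that it was taken out after dissection, and markers of the oocyte were near 0 in most libraries. The granulosa gene Inha had a group median between 1051 and 9027 TPM, while the cumulus expansion gene Has2 had group medians of 0.06 to 1.49 TPM, its companion Tnfaip6 of 3.64 to 15.9 TPM, and the 8 oocyte markers together had group medians of 0.13 to 0.42 TPM. Putative unruptured replicate 1 and putative ruptured replicate 12 stood apart as the only libraries above 5 TPM of the oocyte gene Zp3, with 54.0 and 12.0 TPM, while 6 others had 0.56 to 3.37 TPM. Theca and stromal markers were higher on the unruptured side in both media: 8 markers summed to between 29.2 and 2780 TPM for the putative unruptured side, 4.12 and 568 for the putative ruptured side, 72.6 and 1330 on the unruptured side post-hCG, and 1.1 and 53.0 on the ruptured side post-hCG. In these bulk samples, fewer cells of a type and less RNA per cell cannot be told apart.

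Together the 34 genes made up a larger share of the counts post-hCG than without hCG on both sides. Their share per library was 0.917 to 4.34% (median 2.82) in putative unruptured and 1.57 to 2.85% (median 2.14) in putative ruptured libraries. With hCG it was 4.01 to 7.18% (median 5.72) on the unruptured side and 2.77 to 4.15% (median 3.31) on the ruptured side. The unruptured side post-hCG thus had the highest median, and 1 of its libraries, replicate 2 at 4.01%, lay within the ranges of the ruptured side post-hCG and of the putative unruptured side. No test was made of this sum.

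**Figure D1:**
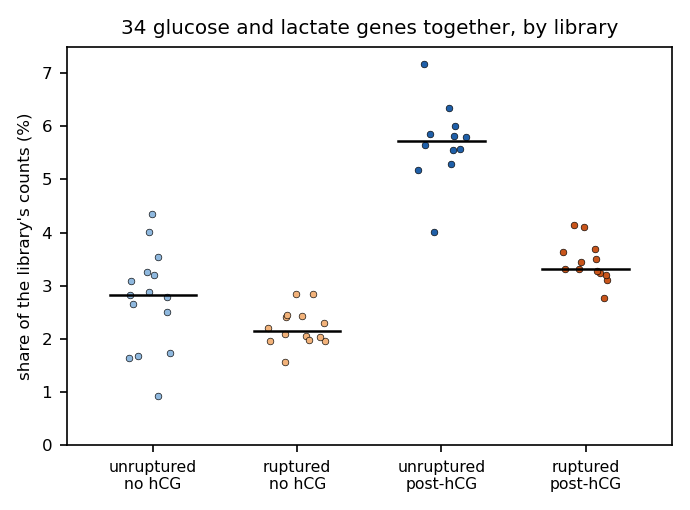
Share of each library's counts taken by the 34 genes, in percent, for the 4 groups, with 1 point per library and a bar at the group median. The medians are 2.82, 2.14, 5.72 and 3.31% from left to right, and the unruptured side post-hCG has the highest median.

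Post-hCG, most of these genes were higher than without hCG, on either side of the follicle. On the unruptured side 25 of 34 genes rose and 2 fell, where 25.4% of all genes tested rose and 27.7% fell, 53.1% in all (edgeR quasi-likelihood test, Benjamini-Hochberg adjusted p below 0.05). The ruptured side had 21 genes that rose and 3 that fell, against 29.7% and 30.4% of all genes, 60.1% in all. The median log2 fold change (log2FC, positive when higher post-hCG) of the 34 genes was 1.22 on the unruptured side, where that of all genes tested was -0.03, and 0.72 on the ruptured side, where it was -0.001 for all genes. The responses on the sides rest on separate libraries, and 21 genes rose in both while Ldhb and G6pdx fell in both. Among the 21, Pfkfb4 could pass the count filter through the post-hCG groups alone, so its rise was in part selected. Slc2a3, Slc16a1, Pdk3 and Pgm1 passed as higher on the unruptured side alone, Aldoc passed as lower on the ruptured side alone, and Pfkm, Pfkfb2, Pdk2, Pdha1, Pdhb and Dlat passed on neither. The TPM ranges with and without hCG did not overlap on the unruptured side for 12 genes, all higher (Hk2, Pfkl, Pfkp, Pfkfb3, Aldoa, Gapdh, Pgam1, Eno1, Pkm, Ldha, Slc16a3 and Pgm2), where 3.82% of all genes were apart and higher and 1.45% apart and lower. On the ruptured side Hk2, Pfkfb3, Pgam1 and Pgm2 were apart and higher, as were 3.43% of all genes, and Ldhb was apart and lower, as were 4.34%. Markers of cell types moved with hCG as well: 4 of 7 theca and stromal markers tested fell on the unruptured side and 3 of 3 on the ruptured side, among them Dcn (4.91-fold and 19.1-fold lower), and of 8 granulosa markers 5 fell on each side while 3 and 2 rose. A marker could pass the count filter through 1 group alone, so the theca and stromal markers tested were in part selected as high without hCG. The same holds for the granulosa marker Cyp19a1, which was not tested between the sides post-hCG. The part of these cell types in the responses was not tested.

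**Figure D2:**
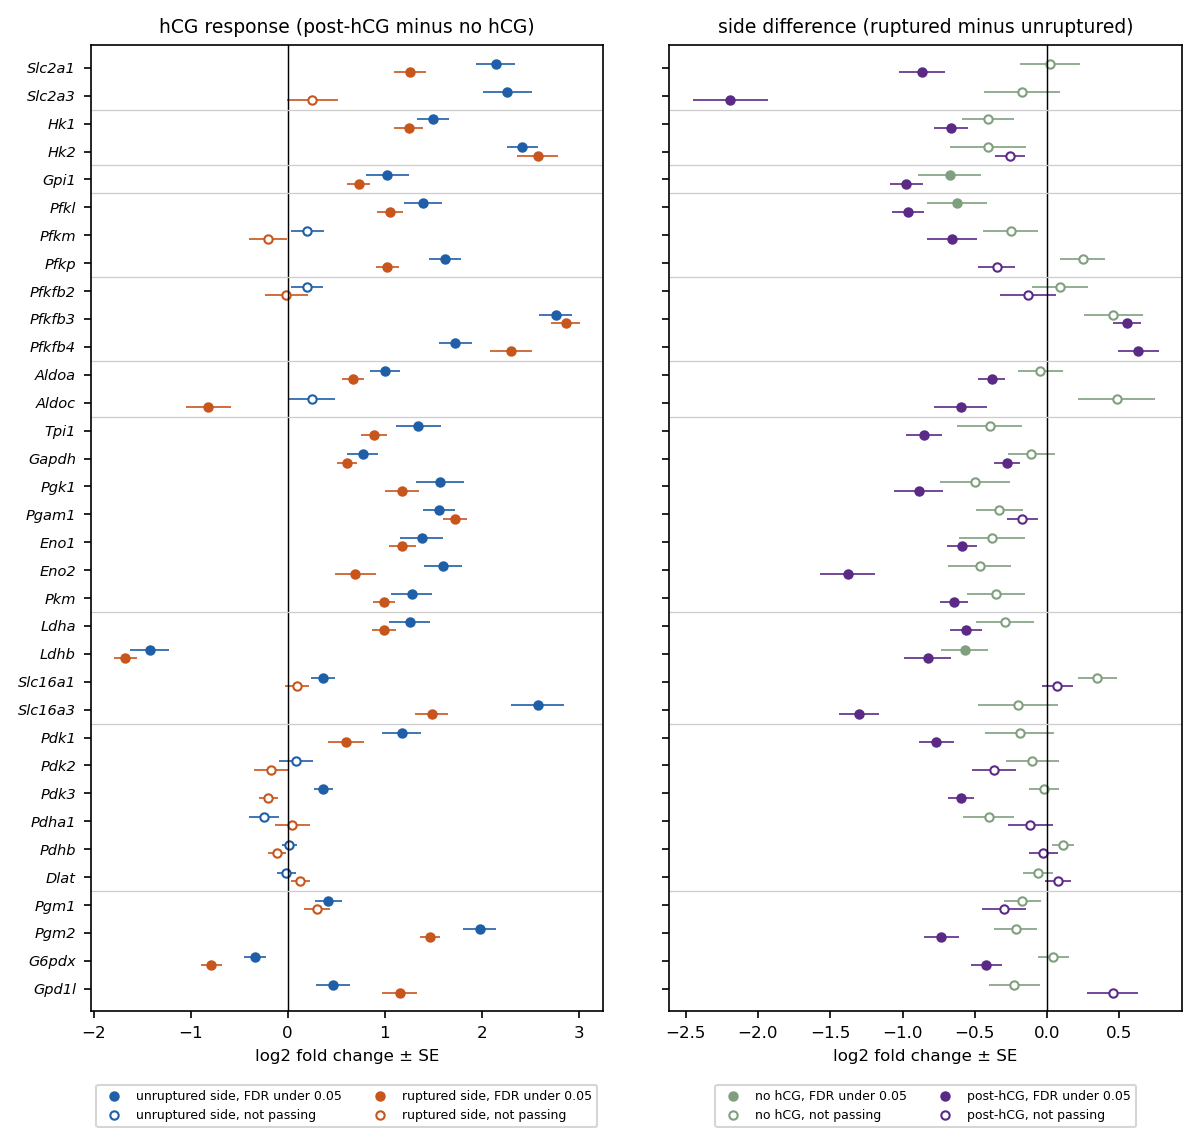
The log2 fold change of each gene with its SE from edgeR, ordered along the pathway from glucose uptake at the top to the branches at the bottom, with the response to hCG on the left and the difference between sides on the right. Filled points passed an adjusted p of 0.05. Most responses to hCG lie right of 0, and most differences between the sides post-hCG lie left of it.

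The stretch upstream of the start of transcription is shown for 5 of these genes, picked as examples of the directions seen: Ldha, Pgk1 and Hk2 rose in both responses, Ldhb fell in both and Dlat passed in neither. The 250 bases before each start are those of RefSeq on GRCm38.p6, written 5′ to 3′ on the gene's strand. Capitals mark ACGTG or GCGTG on either strand, the core of the element that hypoxia-inducible factors bind, which is also contained in the E-box CACGTG.
Ldha, chr7:46845554-46845803, + strand: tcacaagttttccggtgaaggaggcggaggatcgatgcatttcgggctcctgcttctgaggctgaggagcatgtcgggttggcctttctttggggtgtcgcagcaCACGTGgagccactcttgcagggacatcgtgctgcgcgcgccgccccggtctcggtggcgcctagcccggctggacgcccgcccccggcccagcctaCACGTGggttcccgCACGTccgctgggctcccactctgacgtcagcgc
Pgk1, chrX:106186850-106187099, + strand: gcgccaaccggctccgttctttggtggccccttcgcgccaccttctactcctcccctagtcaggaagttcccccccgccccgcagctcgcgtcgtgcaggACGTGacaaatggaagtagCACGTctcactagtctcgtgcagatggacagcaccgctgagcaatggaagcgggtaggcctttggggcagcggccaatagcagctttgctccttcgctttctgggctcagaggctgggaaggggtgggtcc
Hk2, chr6:82774455-82774704, - strand: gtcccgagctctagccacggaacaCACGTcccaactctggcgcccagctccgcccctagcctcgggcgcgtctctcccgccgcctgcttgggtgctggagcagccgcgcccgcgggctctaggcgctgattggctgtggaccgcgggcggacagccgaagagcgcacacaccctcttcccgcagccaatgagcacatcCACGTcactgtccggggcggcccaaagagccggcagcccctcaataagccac
Ldhb, chr6:142507958-142508207, - strand: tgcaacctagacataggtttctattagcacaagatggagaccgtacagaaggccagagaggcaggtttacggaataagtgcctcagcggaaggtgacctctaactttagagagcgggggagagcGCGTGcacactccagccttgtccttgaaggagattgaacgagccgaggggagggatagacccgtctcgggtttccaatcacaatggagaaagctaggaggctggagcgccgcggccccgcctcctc
Dlat, chr9:50659781-50660030, - strand: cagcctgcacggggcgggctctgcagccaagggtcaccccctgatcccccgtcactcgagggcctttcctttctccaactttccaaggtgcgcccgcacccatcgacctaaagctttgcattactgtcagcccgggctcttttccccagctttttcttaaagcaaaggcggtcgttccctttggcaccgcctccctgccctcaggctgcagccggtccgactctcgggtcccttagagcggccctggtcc

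The Ldha stretch shown held 5 matches, counted on both strands so that CACGTG counts as 2, and those of Pgk1 and Hk2 held 2 each. Ldha has another start whose stretch held 1 match. The Ldhb stretch had 1 match and the Dlat stretch none. RefSeq listed 47 such stretches for 31 of the genes, with no entry used for Slc2a3, Pgm1 or Pgm2. At least 1 match was found in 37 of these, 78.7%, against 38.6% of the 32851 stretches of all genes. Their median GC content was 61.2%, against 52.4% for all, and the part of base composition in the matches was not tested. The matches in the 5 stretches shown do not stand for the other genes. Gpi1, Tpi1 and Eno2 rose in both responses and had 0 matches. Pfkfb2, which passed in neither response, had 4 matches in 1 of its 3 stretches. Pdha1 and Pdhb, which also passed in neither, had 3 and 2 matches. A match is a run of letters and says nothing about binding.

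Glucose enters follicle cells through facilitative transporters, and Slc2a1 encodes the widespread GLUT1. Slc2a1 was between 2.11 and 15.6 TPM (median 8.75) on the putative unruptured side and between 14.1 and 65.7 TPM (median 35.9) on the unruptured side post-hCG. It was between 3.67 and 23.0 TPM (median 7.23) on the putative ruptured side and between 7.87 and 27.8 TPM (median 18.3) on the ruptured side post-hCG. Each of the 12 and 13 libraries post-hCG lay above the no-hCG median of their own side, while the ranges overlapped. Its rise was 4.42-fold on the unruptured side (log2FC 2.15 ± 0.20 SE, edgeR adjusted p = 1.23e-10) and 2.40-fold on the ruptured side (1.26 ± 0.17, edgeR adjusted p = 1.15e-07).

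Slc2a3 encodes GLUT3, a transporter of high affinity that is best known from neurons. Without hCG it had medians of 0.79 TPM on the putative unruptured side (0.23 to 5.99) and 0.52 TPM on the putative ruptured side (0.18 to 4.10). Post-hCG the unruptured side reached a median of 5.63 TPM (1.67 to 7.81) and the ruptured side was at 0.68 TPM (0.23 to 2.31). On the unruptured side the gene rose 4.81-fold (log2FC 2.27 ± 0.26, edgeR adjusted p = 6.74e-09), while the value on the ruptured side was 0.26 ± 0.26 (edgeR adjusted p = 0.408). At a median of 10.5 to 14.0 counts per library in the groups at the low level, a small change could not be resolved.

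Hexokinases trap glucose as glucose 6-phosphate. Hk2, the inducible form that binds mitochondria, did not exceed 3.57 TPM in any library without hCG and had medians of 1.26 and 0.92 TPM on the putative unruptured and putative ruptured side. Its medians post-hCG were 7.10 TPM (4.75 to 12.8) on the unruptured and 4.40 TPM (2.84 to 11.8) on the ruptured side, so that the ranges with and without hCG were apart on each side. The rise was 5.36-fold (log2FC 2.42 ± 0.16, edgeR adjusted p = 3.53e-14) and 5.97-fold (2.58 ± 0.21, edgeR adjusted p = 1.39e-12). Hk1, the constitutive form, was the more abundant in TPM, with medians of 21.5 and 14.1 without hCG and 53.7 and 26.9 post-hCG on the unruptured and ruptured side. It rose 2.83-fold and 2.38-fold. Gpi1, the isomerase that follows, went from medians of 265.4 and 167.0 TPM to 568.5 and 244.4 TPM, a log2FC of 1.03 ± 0.22 and 0.73 ± 0.12 that passed on both sides.

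Phosphofructokinase, the pacemaker step, is built from liver, platelet and muscle subunits. Pfkl rose 2.63-fold on the unruptured and 2.08-fold on the ruptured side (log2FC 1.40 ± 0.20 and 1.06 ± 0.14), and Pfkp rose 3.07-fold and 2.04-fold (1.62 ± 0.17 and 1.03 ± 0.12). The muscle subunit Pfkm had medians of 1.48 to 3.02 TPM in the 4 groups and log2FC values of 0.20 ± 0.17 and -0.20 ± 0.20, neither of which passed.

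Fructose 2,6-bisphosphate, the strongest activator of phosphofructokinase, is made and removed by the bifunctional Pfkfb enzymes, and Pfkfb3 is the form with the most kinase activity. Pfkfb3 was between 0.74 and 4.47 TPM (median 2.71) on the putative unruptured and between 1.09 and 7.03 TPM (median 3.59) on the putative ruptured side. With hCG its level was between 9.38 and 23.3 TPM (median 17.7) on the unruptured and between 15.1 and 30.9 TPM (median 23.8) on the ruptured side. No library with hCG fell into the range without it. These were the largest rises among the 34 genes on each side, 6.79-fold (log2FC 2.76 ± 0.17, edgeR adjusted p = 7.13e-15) and 7.30-fold (2.87 ± 0.15, edgeR adjusted p = 1.99e-17). Pfkfb4 rose as well, by 1.73 ± 0.17 and 2.30 ± 0.22 on the log2 scale, to medians of 4.25 and 7.00 TPM. Because it failed the count filter between the sides without hCG, it could enter these tests through the post-hCG groups alone. Its rise was thus in part fixed by the filter. Pfkfb2, the form found in heart, had medians of 1.42 to 1.85 TPM, and its log2FC of 0.20 ± 0.16 and -0.01 ± 0.23 did not pass.

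Aldolase A, encoded by Aldoa, is the form of most tissues, and aldolase C, encoded by Aldoc, is the brain form. Aldoa had medians of 2216 and 1934 TPM without hCG and rose to 4485 and 2775 TPM (log2FC 1.00 ± 0.16 on the unruptured and 0.67 ± 0.11 on the ruptured side). Aldoc did the reverse on the ruptured side, where its median of 12.4 TPM (5.52 to 31.95) without hCG compared with 4.72 TPM (2.45 to 10.5) post-hCG and all 13 libraries lay below the earlier median. It fell by 0.82 on the log2 scale there (SE 0.23, edgeR adjusted p = 0.00306), and its value of 0.25 ± 0.24 on the unruptured side did not pass.

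Below aldolase the chain is carried by the most abundant of these transcripts. In each of the 4 groups Ldha, Aldoa, Gapdh and Pkm had the 4 highest medians, and Ldha was the first of them, at 2883 and 2582 TPM without hCG and 6529 and 4207 TPM post-hCG. All 7 genes of the lower chain (Tpi1, Gapdh, Pgk1, Pgam1, Eno1, Eno2 and Pkm) rose on both sides. Pgam1, phosphoglycerate mutase, had 122 to 516.6 TPM on the putative unruptured and 128.7 to 332.8 TPM on the putative ruptured side. The unruptured and ruptured sides post-hCG had 806 to 1325 TPM and 702.5 to 937 TPM of it, apart from the libraries without hCG on each side. Its log2FC was 1.56 ± 0.17 and 1.73 ± 0.12. Gapdh, often used as a reference gene, was not constant: its log2FC was 0.78 ± 0.16 (edgeR adjusted p = 0.000142) and 0.61 ± 0.11 (edgeR adjusted p = 9.64e-06). The other 5 rose by log2FC values between 1.28 and 1.61 on the unruptured side and between 0.70 and 1.18 on the ruptured side, where the call of Eno2 was lost with library totals alone and on TPM. Gapdh, Eno1, Pgk1, Ldha, Pkm and other members have processed pseudogenes or close copies, and reads shared with these could not be assigned from the tables.

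Lactate dehydrogenase is a tetramer of the subunits encoded by Ldha, which is common in glycolytic tissue, and Ldhb, which is common in oxidative tissue. They went opposite ways. Ldha was at 725 to 4536 TPM on the putative unruptured and 1415 to 3355 TPM on the putative ruptured side, and at 4769 to 8217 TPM on the unruptured and 3321 to 5278 TPM on the ruptured side post-hCG. The groups of the unruptured side were apart and those of the ruptured side met at their ends. The rise was 2.40-fold (log2FC 1.26 ± 0.21, edgeR adjusted p = 9.03e-06) and 1.99-fold (0.99 ± 0.12, edgeR adjusted p = 2.22e-08). Ldhb went from 34.7 to 145.7 TPM (median 55.3) down to 10.9 to 36.1 TPM (median 17.4) on the unruptured side. On the ruptured side it went from 25.8 to 65.6 TPM (median 41.8) down to 4.99 to 16.0 TPM (median 11.3). Every library post-hCG was below the no-hCG median, and on the ruptured side the groups did not meet. Its fall was 2.68-fold (log2FC -1.42 ± 0.20, edgeR adjusted p = 3.63e-07) and 3.19-fold (-1.67 ± 0.12, edgeR adjusted p = 6.63e-14).

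Lactate leaves and enters cells through monocarboxylate transporters, of which Slc16a3 encodes MCT4, the exporter of glycolytic cells, and Slc16a1 encodes MCT1. Slc16a3 was at 3.91 to 71.0 TPM (median 38.9) on the putative unruptured and 12.0 to 72.3 TPM (median 31.1) on the putative ruptured side. With hCG its level was at 120.8 to 316 TPM (median 254.5) on the unruptured and 53.7 to 103.5 TPM (median 82.4) on the ruptured side. The libraries of the unruptured side post-hCG were all above those of the other 3 groups. The gene rose 5.97-fold (log2FC 2.58 ± 0.28, edgeR adjusted p = 2.08e-09) on the unruptured side, and by a log2FC of 1.49 ± 0.17 (edgeR adjusted p = 5.47e-09) on the ruptured side. Slc16a1 had medians between 2.68 and 3.76 TPM in the 4 groups. Its log2FC of 0.36 ± 0.12 on the unruptured side passed (edgeR adjusted p = 0.0129), but not with library totals as the only scaling or after thinning the counts, and that of 0.09 ± 0.12 on the ruptured side did not.

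**Figure D3:**
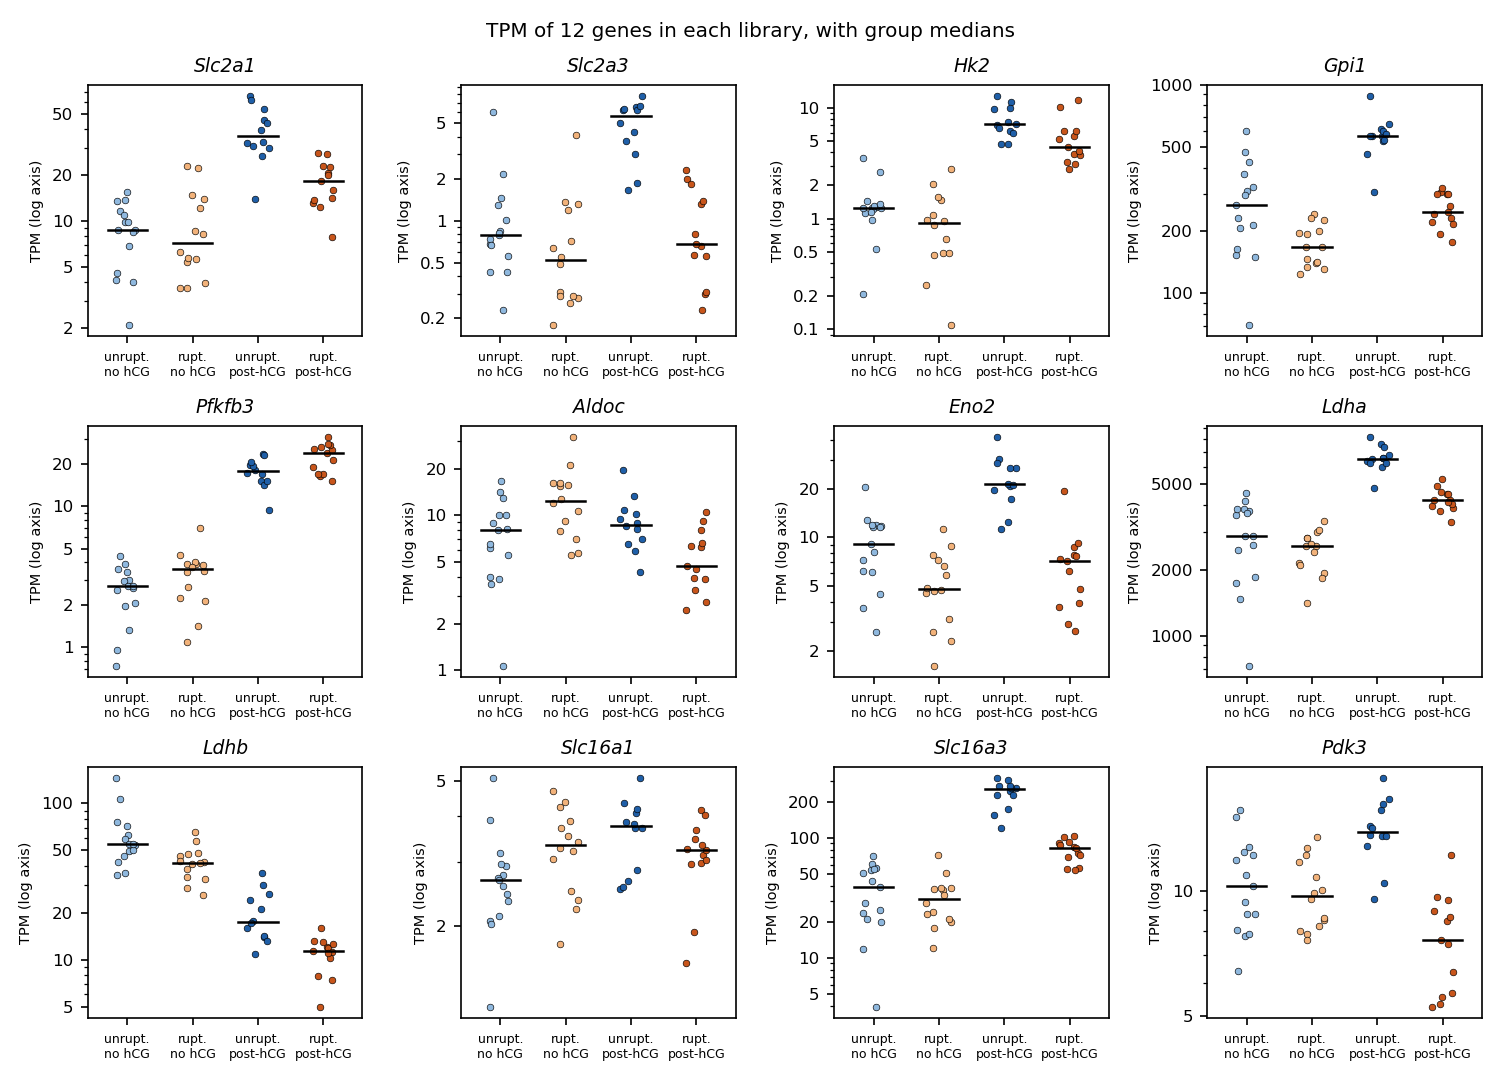
TPM of 12 genes in each of the 54 libraries on logarithmic axes, with a bar at each group median. Slc16a3 on the unruptured side post-hCG starts at 120.8 TPM, above the 103.5 TPM that is the highest value of the ruptured side post-hCG, and Ldhb is lower post-hCG than without hCG on both sides.

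The subunits of the pyruvate dehydrogenase complex Pdha1, Pdhb and Dlat, which link pyruvate to the citric acid cycle, passed in neither response, with log2FC values between -0.25 and 0.13. The lowest SE among them was that of Pdhb, whose log2FC was 0.02 ± 0.08 on the unruptured and -0.11 ± 0.10 on the ruptured side, at medians of 29.2 to 36.9 TPM. With library totals as the only scaling Pdhb was lower post-hCG on both sides (-0.20 and -0.44), and Pdha1 on the unruptured side (-0.45, edgeR adjusted p = 0.0152), where the median of all genes moved to -0.25 and -0.33. Pdhb also passed as lower on the ruptured side in limma on TPM (-0.30, adjusted p = 0.0432). Pdk1, a kinase that switches the complex off, rose by 1.18 ± 0.20 and 0.60 ± 0.19 on the log2 scale, to medians of 19.0 and 8.82 TPM. Its value on the ruptured side did not pass with library totals alone or on TPM. Pdk3 rose by 0.37 ± 0.10 on the unruptured side (edgeR adjusted p = 0.0018), which was lost with library totals alone, and was at -0.20 ± 0.10 on the ruptured side (edgeR adjusted p = 0.0821), where it passed as lower with library totals alone (-0.52, edgeR adjusted p = 0.000133) and in limma on TPM (-0.34, adjusted p = 0.0239). Pdk2 passed on neither side, but like Pfkm was lower on the ruptured side with library totals alone (edgeR adjusted p = 0.0248 and 0.0251).

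At the branches, phosphoglucomutase connects the pathway with glycogen. The gene listed as Pgm2 rose from medians of 18.8 and 17.0 TPM to 83.8 and 41.7 TPM (log2FC 1.98 ± 0.17 and 1.47 ± 0.10), with the ranges apart on both sides. That listed as Pgm1 had 0.42 ± 0.14 on the unruptured side, which passed but not with library totals alone or on TPM, and 0.30 ± 0.13 on the ruptured side, which did not (edgeR adjusted p = 0.055). The names Pgm1 and Pgm2 have been exchanged between releases of the mouse annotation, so which paralog each row holds is uncertain. G6pdx, the entry to the pentose phosphate route, fell by 0.34 on the log2 scale on the unruptured side (SE 0.11) and by 0.79 on the ruptured side (SE 0.11), and the former did not pass on TPM. Gpd1l, which makes glycerol 3-phosphate, rose by 0.47 ± 0.17 and 1.16 ± 0.18 in counts, passed on neither side in TPM, and on the unruptured side did not pass without unruptured replicate 11 (0.40, edgeR adjusted p = 0.0505).

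Without hCG few of these genes passed between the putative sides. None was higher on the putative ruptured side, where 8.84% of all genes tested were, and 3 were lower, where 8.96% were, 17.8% in all (log2FC positive when higher on the ruptured side). At an unadjusted p below 0.05, 2 were higher and 7 lower, and with all 4 groups in 1 fit Pfkfb3 and Slc16a1 passed as higher. The TPM ranges of the sides overlapped for all 34 genes, and 0.0331% of all genes were apart and higher. The median log2FC of the 33 genes tested was -0.20, and -0.006 for all genes. The 3 were Gpi1 (log2FC -0.67 ± 0.22, edgeR adjusted p = 0.0262), Pfkl (-0.62 ± 0.21, edgeR adjusted p = 0.0333) and Ldhb (-0.57 ± 0.16, edgeR adjusted p = 0.012). Gpi1 was at 70.6 to 600.4 TPM on the putative unruptured and 123.3 to 240.8 TPM on the putative ruptured side, and all 14 libraries of the latter lay below the median of the former. Gpi1 and Pfkl did not pass on TPM, none of the 3 passed with the replicate number as a block (the numbers did not pair the libraries), Hk1 became a further lower gene (-0.49, edgeR adjusted p = 0.0406, against -0.41 and 0.123) without the 2 libraries above 5 TPM of Zp3, Gpi1 lost its call without putative unruptured replicate 6 or 7, and Pfkl lost its call when any of 10 single libraries was left out. Of 8 granulosa markers tested here 6 were higher and of 7 theca and stromal markers 6 were lower on the putative ruptured side. A marker could pass the count filter through the side where it was high, so these directions were in part selected by it. The part of these cell types in the differences was not tested.

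Post-hCG most of the pathway was lower on the ruptured side. Lower values passed for 21 of 34 genes, where 11.3% of all genes tested were lower, and higher values for 2, where 10% were higher (21.4% in either direction). The median log2FC was -0.57 for the 34 genes and 0.01 for all genes. These comparisons use the same post-hCG libraries as the responses above and are no further evidence for them. Lower levels passed at glucose uptake (both genes), hexokinase (Hk1), Gpi1, phosphofructokinase (Pfkl and Pfkm), aldolase (both), the lower chain (6 of 7, without Pgam1), lactate (Ldha, Ldhb and Slc16a3), Pdk1, Pdk3, Pgm2 and G6pdx. The call of Aldoc was lost with all 4 groups in 1 fit (-0.59, edgeR adjusted p = 0.11) and with the replicate block (-0.54, edgeR adjusted p = 0.0601).

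The gap was widest for Slc2a3, which was 4.56-fold lower on the ruptured side (log2FC -2.19 ± 0.26, edgeR adjusted p = 3.37e-07), Eno2, the neuronal enolase, 2.60-fold (-1.38 ± 0.19, edgeR adjusted p = 2.7e-06) and Slc16a3, 2.46-fold (-1.30 ± 0.14, edgeR adjusted p = 6.25e-08). In all 13 ruptured libraries each of these was under the median of the unruptured side. TPM ranges did not overlap for Pfkl, Gapdh, Pkm and Slc16a3, a feature shown by 1.03% of all genes tested in this direction, although for Pfkl the gap was only between 93.54 and 93.58 TPM. Pkm, pyruvate kinase, was at 2726 to 5298 TPM on the unruptured and 1566 to 2499 TPM on the ruptured side (log2FC -0.65 ± 0.10). For Gapdh the gap in TPM exceeded that in counts (log2FC -0.28 ± 0.09, edgeR adjusted p = 0.0264), and its TPM per count was shifted by 0.305 on the log2 scale, relative to other genes, in the unruptured group post-hCG. The count difference did not pass without a filter, with all groups in 1 fit, or without unruptured replicate 6 or 7.

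Of the genes that set fructose 2,6-bisphosphate, 2 of 3 went the other way. Pfkfb3 was 1.47-fold higher on the ruptured side (log2FC 0.55 ± 0.10, edgeR adjusted p = 5.46e-05) and Pfkfb4 1.55-fold (0.63 ± 0.14, edgeR adjusted p = 0.00137). For Pfkfb3 9 of 13 ruptured libraries exceeded the unruptured median, and for Pfkfb4 10 of 13 did. Neither passed in limma on TPM (adjusted p = 0.0715 and 0.0971), whose median over all genes was shifted to -0.21. Hk2, Pfkp, Pgam1, Slc16a1, Pfkfb2, Pdk2, Pdha1, Pdhb, Dlat, Pgm1 and Gpd1l did not pass, Pfkp by a narrow margin (-0.35 ± 0.13, edgeR adjusted p = 0.0504). Pgam1, Hk2, Pdk2 and Pfkp passed as lower in limma on log2(TPM + 1) (adjusted p = 7.49e-05, 0.0453, 0.0081 and 0.00448). These genes and Pgm1 also passed as lower with library totals alone, where the median of all genes was -0.14. With the replicate block Gpd1l passed as higher (edgeR adjusted p = 0.0463), and Pdk2 and Pfkp as lower (edgeR adjusted p = 0.0404 and 0.0461). Pfkp also passed as lower with a filter on a mean of at least 20 counts and after thinning (edgeR adjusted p = 0.0454 and 0.0433). Its call changed when any of 9 single libraries was left out. Of 8 theca and stromal markers, 5 passed the count filter, and these 5 were lower on the ruptured side. Col3a1 led them, at 45.7 to 1187 TPM on the unruptured and 0.82 to 41.0 TPM on the ruptured side. A marker could pass the filter through the unruptured side alone, so the shared direction of the 5 was in part fixed by it. Of the theca and stromal list Cyp17a1, Insl3, Lum and Pdgfra had a median of 0 on the ruptured side post-hCG. Granulosa markers were higher on the ruptured side for 3 of 5 tested, cumulus markers for 1 of 2, and none of 1 endothelial and 1 surface epithelium marker tested passed. Smooth muscle markers summed to 2.86 to 24.4 TPM on the unruptured and 0.31 to 4.74 TPM on the ruptured side, and immune markers to 1.27 to 99.0 and 0.21 to 4.43 TPM, with none tested. The part of these cell types in the differences was not tested.

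Whether the response to hCG itself differed between the sides was tested with all 4 groups in 1 fit. The response was smaller or more negative on the ruptured side for 6 of 34 genes, where 4.65% of all genes tested had a lower value, and for none was it larger, where 4.25% had a higher one (8.91% in all). At an unadjusted p below 0.05 the numbers were 10 and 1. The 6 were Slc2a3 (difference of log2FC -2.01 ± 0.39, edgeR adjusted p = 0.000423), Slc16a3 (-1.09 ± 0.33, edgeR adjusted p = 0.0266), Aldoc (-1.07 ± 0.35, edgeR adjusted p = 0.0387), Eno2 (-0.90 ± 0.30, edgeR adjusted p = 0.044), Slc2a1 (-0.88 ± 0.27, edgeR adjusted p = 0.0284) and Pdk3 (-0.57 ± 0.14, edgeR adjusted p = 0.00436). Both glucose transporters and the lactate exporter were thus among them. Of the enzymes from hexokinase to pyruvate kinase, Aldoc and Eno2 passed in this fit, and no hexokinase, phosphofructokinase or Pfkfb gene did. That split depended on the setting. With no filter Slc2a1, Aldoc and Eno2 did not pass (edgeR adjusted p = 0.0506, 0.0655 and 0.0758). Aldoc and Eno2 also did not after thinning or with the replicate block, and Pdk3 did not after thinning (edgeR adjusted p = 0.0631). Pfkp passed with library totals alone (edgeR adjusted p = 0.0144). In limma on log2(TPM + 1), Pfkp, Tpi1, Aldoa, Gapdh and Pkm passed (adjusted p = 0.00387 to 0.0486). Without the 2 libraries above 5 TPM of Zp3, only Slc2a3, Pdk3 and G6pdx passed as lower, since Slc2a1, Slc16a3, Aldoc and Eno2 then had an edgeR adjusted p between 0.0505 and 0.0811. Of the 21 genes that rose on both sides, 16 had the larger log2FC on the unruptured side, but among these the difference passed only for Slc2a1, Eno2 and Slc16a3.

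**Figure D4:**
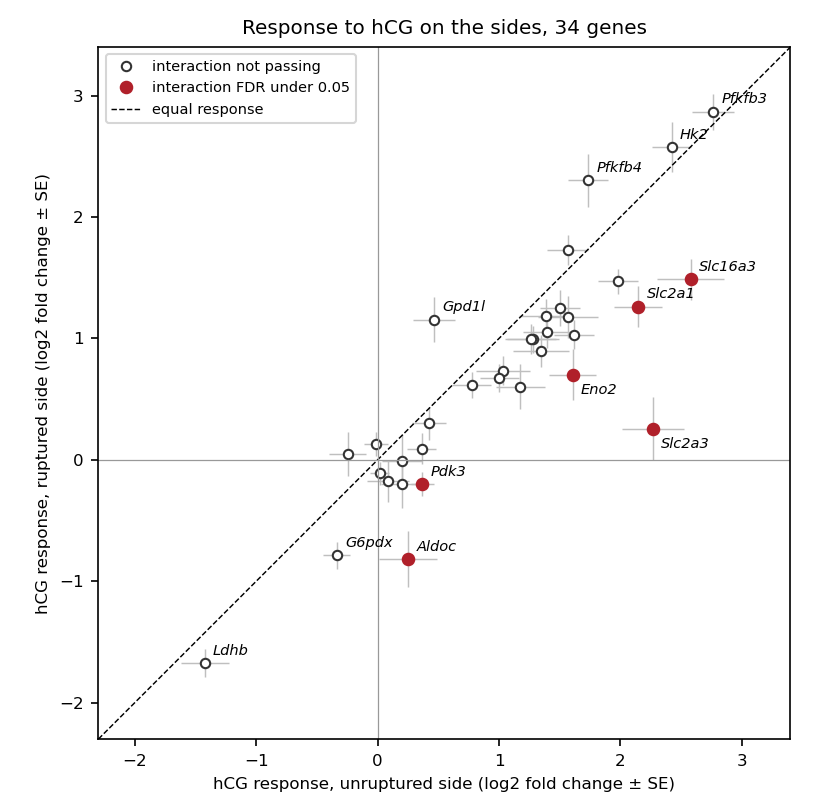
Response to hCG of each of the 34 genes on the unruptured side (horizontal axis) and the ruptured side (vertical axis), as log2 fold change with SE from edgeR, with a dashed line of equal response. The 6 filled points passed the test of the difference between the responses, and all lie below the line.

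Ratios of 2 forms within a library depend on how libraries are scaled to each other only through the pseudocount, which matters where a form is near 1 TPM. Of 8 pairs compared on log2((TPM + 1)/(TPM + 1)), 2 differed between the sides without hCG, 4 between the sides post-hCG, 5 with hCG on the unruptured and 7 with hCG on the ruptured side (two-sided permutation test, adjusted over 32 tests). Some of these calls depended on the measure. Slc2a1 over Slc2a3 with hCG on the unruptured side was 0.59 (adjusted permutation p = 0.0452), but 0.10 in CPM (adjusted permutation p = 0.7). Hk1 over Hk2 there did not pass (adjusted permutation p = 0.0578), but did with 0.1 TPM (0.000462). Between the sides post-hCG, Slc2a1 over Slc2a3 did not pass (0.50, adjusted permutation p = 0.0623). It did with 0.1 TPM (1.25, adjusted permutation p = 0.00249) and in CPM (1.10, adjusted permutation p = 7.11e-05). Ldha over Ldhb moved most. Its mean log2 ratio was 5.49 ± 1.03 (SD, n = 15) and 8.36 ± 0.47 (n = 12) without and with hCG on the unruptured side, and 5.85 ± 0.34 (n = 14) and 8.50 ± 0.38 (n = 13) on the ruptured side. In TPM this took Ldha from a median of 56.9 and 60.9 times Ldhb to 366.3 and 376.0 times. With and without hCG did not overlap on either side (permutation p = 1e-05, which is the lowest possible with 100000 resamples, 6.4e-05 adjusted), and the sides did not differ in either medium (adjusted p = 0.301 and 0.43 by permutation).

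Slc16a1 over Slc16a3 went from -3.14 ± 1.11 to -5.66 ± 0.41 on the unruptured and from -2.86 ± 0.58 to -4.26 ± 0.39 on the ruptured side, so MCT4 gained on MCT1 in both (permutation p = 1e-05 each, 6.4e-05 adjusted). Post-hCG this ratio was higher on the ruptured side in all 13 libraries against the unruptured median (difference 1.40, adjusted permutation p = 0.000107). Pfkp over Pfkl was higher on the ruptured side by 0.80 without hCG and 0.52 post-hCG (adjusted permutation p = 0.000274 and 0.00141), and its shifts of 0.15 and -0.14 with hCG did not pass. Aldoa over Aldoc was lower by 0.78 on the putative ruptured side (adjusted permutation p = 0.00141), which did not pass in CPM (-0.44, adjusted permutation p = 0.0962). The same ratio rose with hCG by 0.82 and 1.59 (0.0012 and 6.4e-05) and post-hCG stood at 8.81 ± 0.44 and 8.80 ± 0.52. Eno1 over Eno2 was higher on the ruptured side post-hCG by 0.81 (adjusted permutation p = 0.00268). Pdk1 over Pdk2 rose with hCG by 0.99 and 0.65 (adjusted permutation p = 0.00389 and 0.0066). The ratios of Slc2a1 to Slc2a3 and of Hk1 to Hk2 have denominators of a few TPM or less, and some of their calls changed with the pseudocount, as did that of Eno1 over Eno2 with hCG on the ruptured side (adjusted permutation p = 0.0169, and 0.0533 with 0.1 TPM).

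**Figure D5:**
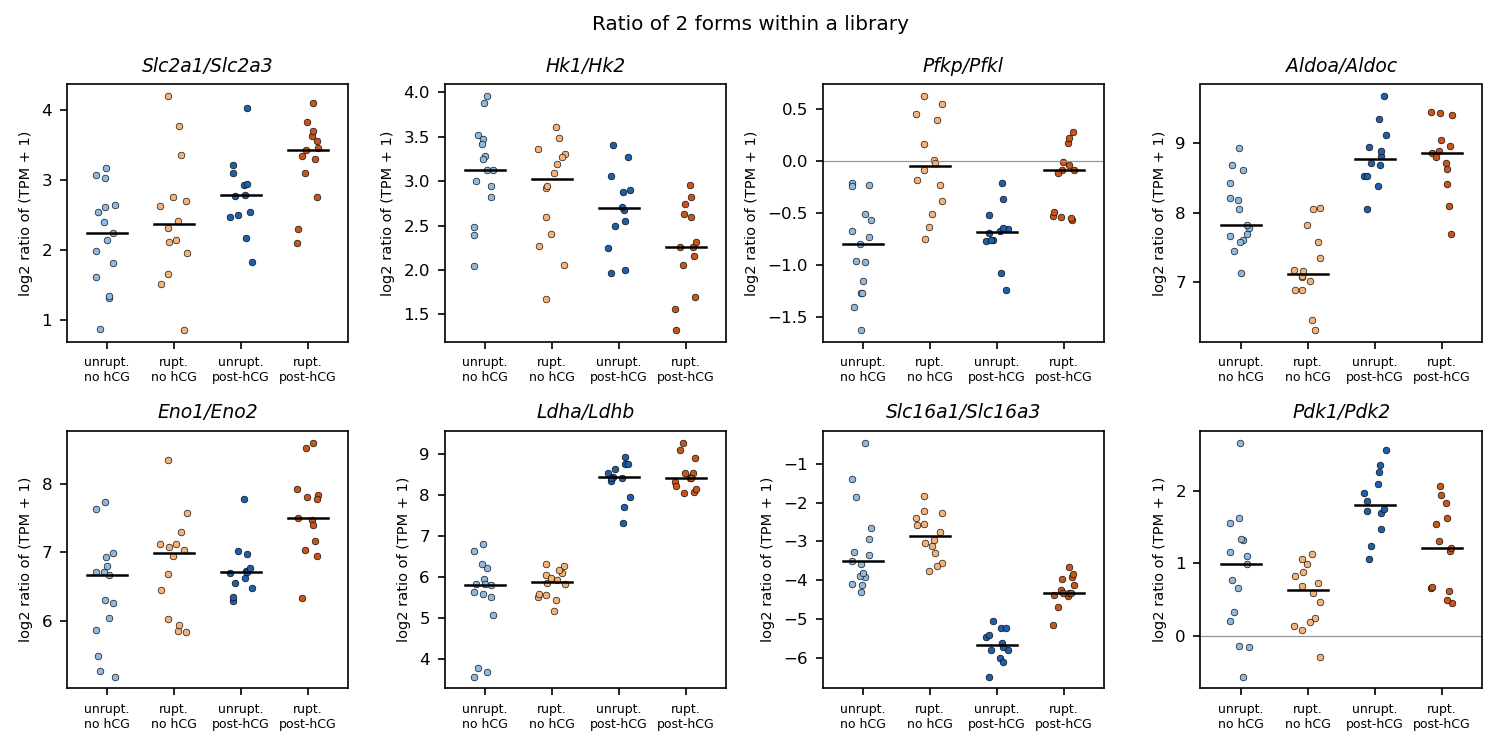
Log2 ratio of (TPM + 1) of 2 forms in each library, for 8 pairs and 4 groups, with a bar at each group median. The ranges of Ldha over Ldhb with and without hCG do not overlap on either side, and 3 libraries of the putative unruptured side have the lowest values.

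The libraries without hCG were the more varied. The SD of log2(TPM + 1) was larger without than with hCG for 32 of 34 genes on the unruptured and 25 of 34 on the ruptured side, with a median SD of 0.53 and 0.44 without and 0.34 and 0.33 with hCG. Putative unruptured replicate 14 had the lowest TPM of its group for 20 of 34 genes and the lowest share of counts, 0.917%. It had 725 TPM of Ldha and 3.91 TPM of Slc16a3, and it also had the lowest Col3a1 of its group, 11.2 TPM. Without it the response on the unruptured side still had 24 or 25 genes that rose, as with any other single library left out, and of the 6 differences between responses that of Eno2 no longer passed (-0.84, edgeR adjusted p = 0.0551). Post-hCG, unruptured replicate 2 was the lowest for 22 genes and replicate 6 the highest for 16.

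Genes next to the pathway were counted in lists, whose counts stand against 25.4% of all genes that rose and 27.7% that fell with hCG on the unruptured side and 29.7% and 30.4% on the ruptured side. Of 24 other glucose and glycolysis genes, mostly forms of other tissues, 7 were tested with hCG on the unruptured side, where 3 rose and 1 fell, and 6 on the ruptured side, where 3 rose and 1 fell. Ldhd, which oxidizes D-lactate in mitochondria, rose most, by 3.68 ± 0.26 and 4.21 ± 0.22 on the log2 scale. Bsg, the partner that brings MCT1 and MCT4 to the cell surface, was 1.95-fold lower on the ruptured side post-hCG (log2FC -0.96 ± 0.11, edgeR adjusted p = 2.86e-07). Slc2a8 rose in both responses (0.84 ± 0.17 and 0.57 ± 0.21), Adpgk rose on the unruptured side (0.60 ± 0.11) and was higher on the putative ruptured side (0.58 ± 0.11), and Bsg fell by 0.29 (SE 0.11) with hCG on the ruptured side.

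In the list of 15 genes for pyruvate entry and its control, which holds 6 of the genes above and was tested whole, 5 rose and 3 fell on the unruptured and 6 rose and 2 fell on the ruptured side, where 25.4% and 27.7%, and 29.7% and 30.4%, of all genes did. Mpc2, a subunit of the mitochondrial pyruvate carrier, rose 4.36-fold and 5.72-fold (log2FC 2.12 ± 0.15 and 2.52 ± 0.17), and Pcx, pyruvate carboxylase, rose 4.48-fold and 6.90-fold (2.16 ± 0.26 and 2.79 ± 0.25). Pdk4 fell 6.66-fold and 12.3-fold (-2.74 ± 0.26 and -3.62 ± 0.16), against the rise of its relative Pdk1. Without hCG, Mpc1 was lower and Pdp2 higher on the putative ruptured side (-0.72 ± 0.17 and 0.59 ± 0.13). Gluconeogenesis genes were tested for 3 of 7, of which Pcx rose and Pck2 fell in both responses (Pck2 -0.36 ± 0.11 and -0.58 ± 0.09), and none passed between the sides.

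Of 12 glycogen genes, 6 of 10 tested rose and 2 fell on the unruptured side. This list holds Pgm1 and Pgm2 from above, which are both among the genes that rose there. On the ruptured side 3 of 9 tested rose and 3 fell, which is near the 29.7% and 30.4% of all genes. Between the sides post-hCG 6 of 9 were lower on the ruptured side, where 11.3% of all genes were. Gys1, glycogen synthase, rose 5.57-fold and 3.10-fold (log2FC 2.48 ± 0.13 and 1.63 ± 0.10), and Pygl, glycogen phosphorylase, rose 3.42-fold and 1.88-fold (1.77 ± 0.19 and 0.91 ± 0.14). Pygl and Gbe1 were lower on the ruptured side post-hCG (-1.27 ± 0.15 and -1.06 ± 0.18), and Ugp2 was lower on the putative ruptured side (-0.59 ± 0.11). In the pentose phosphate list, which holds G6pdx from above, 4 of 7 rose with hCG on each side. Among them were H6pd (1.35 ± 0.15 and 2.14 ± 0.16), Taldo1 (1.63 ± 0.14 and 1.84 ± 0.13) and, on the unruptured side, Pgls (0.47 ± 0.13). On the ruptured side post-hCG Pgd was lower and Rpe higher (-0.50 ± 0.09 and 0.46 ± 0.12), and H6pd was lower on the putative ruptured side (-0.71 ± 0.18).

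The shuttles that carry reducing equivalents into mitochondria had 4 of 6 genes higher with hCG on each side, and Gpd1l from above is among these. They also included Got2 (0.61 ± 0.10 and 0.81 ± 0.10), Mdh2 on the unruptured side (0.51 ± 0.12) and Got1 on the ruptured side (1.00 ± 0.10). Between the sides, Mdh1 was higher on the ruptured side in both media (0.60 ± 0.16 and 0.27 ± 0.08), Got1 was higher post-hCG (0.31 ± 0.10), Mdh2 was lower post-hCG (-0.24 ± 0.09) and Got2 was lower without hCG (-0.36 ± 0.10). Of 16 citric acid cycle genes, against the same shares of all genes, 6 rose and 4 fell on the unruptured side and 7 rose and 2 fell on the ruptured side, with median log2FC values of 0.07 and 0.14. Suclg1 (0.60 ± 0.10 and 0.90 ± 0.11), Ogdh and Idh3a on the ruptured side (0.59 ± 0.07 and 0.51 ± 0.09) rose, and Sucla2 fell on the unruptured side (-0.43 ± 0.09). Sucla2 and Sdha were lower on the putative ruptured side (-0.31 ± 0.09 and -0.30 ± 0.08).

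Among 16 regulators of glycolysis, 6 of 14 tested rose and 2 fell on the unruptured side, and 2 of 11 rose and 5 fell on the ruptured side (all genes 25.4% and 27.7%, and 29.7% and 30.4%). Txnip, which limits glucose uptake, fell 2.67-fold and 7.07-fold (log2FC -1.41 ± 0.28 and -2.82 ± 0.32), and was lower on the ruptured side post-hCG (-1.10 ± 0.30). Myc rose on the ruptured side (1.17 ± 0.13), and Mlxipl, the carbohydrate response factor, rose on the unruptured side (1.57 ± 0.24). Of the oxygen-sensing genes, Hif1a and Epas1 were higher on the putative ruptured side (1.29 ± 0.19 and 1.48 ± 0.31) and Egln1 lower (-0.61 ± 0.20). Egln3, a prolyl hydroxylase whose gene responds to hypoxia-inducible factors, rose 2.3-fold on the unruptured side (edgeR adjusted p = 0.00672) and was 5.29-fold lower on the ruptured side post-hCG (-2.40 ± 0.32, edgeR adjusted p = 1.61e-06). Epas1 fell on the ruptured side with hCG (-1.33 ± 0.27) and was higher there than on the unruptured side post-hCG (0.66 ± 0.23).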

How the data were processed

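Single follicle sides were sequenced with Smart-Seq2, and per the study's methods the authors aligned the reads with HISAT2 to GRCm38. They deposited estimated counts per coding gene, which were rounded here to whole numbers (72.2% of the non-zero counts were whole), and TPM values. The counting program, its annotation and whether the batch correction that the methods mention had been applied to these counts are not given in the sources used here.

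Groups were taken from the sample labels (n = 15, 14, 12 and 13). The whole table was tested with the quasi-likelihood F-test of edgeR 4.0.16 (R 4.3.3) after TMM scaling. The filterByExpr filter required 10 counts, and 15 in total, and the Benjamini-Hochberg threshold was 0.05. The SE of a log2 fold change was derived from its F statistic. Ratios of 2 isozymes were compared by permutation (100000 resamples, 32 tests). The alternatives were DESeq2 1.42.0, RLE factors, library totals, 2 other filters, all groups in 1 fit, limma 3.58.1 on log2(TPM + 1) or log2(TPM + 0.1), a replicate block, thinning and leaving out libraries. The edgeR and permutation steps were tested on simulated data. From each list of neighbouring genes, those past the threshold with the 3 largest changes are named.

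The 34 genes, the lists and the markers were chosen with earlier results of these data known. The labels only number the replicates, and that each library came from an individual follicle side is stated in the study's methods. None of the replicates within a group agreed within sampling noise. Total counts of 1497071 to 2834734 per library set the precision for genes of few counts.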

Additional observations from a re-analysis of the deposited data

Results flagged for a closer look

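For 6 of the 34 genes the response to hCG differed between the sides in a test of the difference itself (ruptured minus unruptured side, log2 scale). The differences were -2.01 for Slc2a3, -1.09 for Slc16a3, -1.07 for Aldoc, -0.90 for Eno2, -0.88 for Slc2a1 and -0.57 for Pdk3. Slc2a3 rose on the unruptured side alone, Slc16a3, Eno2 and Slc2a1 rose on both, Aldoc fell on the ruptured side alone, and Pdk3 had log2 fold changes of opposite sign, of which the rise on the unruptured side passed.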

How the results depend on the processing

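The median log2 fold change of the 34 genes kept its sign in all 5 comparisons under every alternative, and DESeq2 and RLE factors gave the same counts of genes higher and lower as edgeR. Without hCG, 2 genes were higher on the putative ruptured side with all 4 groups in 1 fit, against 0, and the 3 lower genes became 1 in limma with either pseudocount and 0 with the replicate block. Post-hCG the 2 higher genes became 0 in limma with either pseudocount. With library totals only, 4 genes fell with hCG on the unruptured and 7 on the ruptured side, against 2 and 3, and in limma 1 and 5 did. The 6 genes with a smaller response on the ruptured side became 3 without a filter, 3 after thinning, 11 in limma and 3 without the 2 libraries above 5 TPM of Zp3, where the lower genes without hCG were 4, with Hk1 added. Pdhb on the unruptured side reversed to -0.20 with library totals. The cause of these shifts was not tested.

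With a pseudocount of 0.1 TPM, Slc2a1 over Slc2a3 was 1.25 between the sides post-hCG, 0.0 (-0.0) with hCG on the unruptured and 0.70 on the ruptured side, Hk1 over Hk2 was -1.03 with hCG on the unruptured side, and Eno1 over Eno2 was 0.70 with hCG on the ruptured side and no longer passed. In CPM, Slc2a1 over Slc2a3 was 1.10 between the sides post-hCG and 0.10 with hCG on the unruptured side, Hk1 over Hk2 was -0.43 and -0.82 in the same comparisons, and Aldoa over Aldoc was -0.44 between the sides without hCG and no longer passed. The post-hCG difference in Slc2a1 over Slc2a3 passed with both of these measures, but not on log2((TPM + 1)/(TPM + 1)).

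Leaving out single libraries gave 0 to 1 higher and 1 to 4 lower genes without hCG, 2 to 3 and 20 to 23 post-hCG, 24 to 25 and 2 with hCG on the unruptured side and 21 to 22 and 3 on the ruptured side. Leaving out putative unruptured replicate 14 gave 5 smaller responses. The replicate numbers did not pair the libraries (3 of 14 pairs without hCG and 5 of 12 post-hCG correlated above 0.1, and 2 libraries in each correlated best with their own number). With the number as a block the counts higher and lower were 0 and 0, 3 and 22, 24 and 2, 21 and 3, and 0 and 4.

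Scaling moved the balance of all calls: the share that was higher was 49.7% without hCG, 47.0% post-hCG, 47.8 and 49.4% for the responses on the unruptured and ruptured side and 47.8% for their difference, against 39.3, 17.8, 27.5, 24.5 and 25.8% with library totals and 43.3, 8.99, 57.6, 34.3 and 11.1% in limma on log2(TPM + 1). The median of all genes was then -0.06, -0.14, -0.25, -0.33 and -0.11 with library totals, and -0.03, -0.21, 0.04, -0.14 and -0.19 in limma. Genes of a few counts, such as Slc2a3 and Pfkfb4 without hCG, are limited by depth. The runs without single libraries for the responses to hCG, without replicate 14 and without the libraries above 5 TPM of Zp3 were chosen after seeing the data.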
